A study of Saccharomyces cerevisiae with 36 samples.

Results

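The 10 genes described here make, activate and move the chitin synthases of budding yeast (Saccharomyces cerevisiae) or supply their sugar. They were chosen by name for these roles: the synthase genes CHS1, CHS2 and CHS3, the activator gene SKT5, the transport genes CHS5, CHS6 and CHS7, and the hexosamine genes GFA1, GNA1 and QRI1. All 10 of 10 were on the arrays, with 20 spots in all, among 5713 named genes. The synthase genes are CHS1 (YNL192W, chromosome XIV), CHS2 (YBR038W, chromosome II) and CHS3 (YBR023C, chromosome II). The activator and transport genes are SKT5 (YBL061C, chromosome II), CHS5 (YLR330W, chromosome XII), CHS6 (YJL099W, chromosome X) and CHS7 (YHR142W, chromosome VIII). The hexosamine genes are GFA1 (YKL104C, chromosome XI), GNA1 (YFL017C, chromosome VI) and QRI1 (YDL103C, chromosome IV). Cultures were treated with a drug that interferes with the cell wall, and each of 36 arrays of 2 colours carried RNA of a treated and an untreated culture. Calcofluor white, a fluorescent dye that binds chitin, was given at 0.02 or 0.1 mg/ml. Congo red, another dye that binds wall polysaccharides, was given at the same 0.02 or 0.1 mg/ml. Caffeine, a purine analogue known to inhibit the TOR kinase, was given at 2 or 20 mM. RNA was taken after 5, 15 or 90 min, which makes 18 conditions of 2 biological replicates each, and each array's own untreated RNA was the comparison. Neither the strain nor the medium is named in the labels.

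Chitin is a polymer of N-acetylglucosamine and a minor but essential part of the yeast wall. Chs2 makes the primary septum at division, Chs1 repairs the wall as the daughter cell separates, and Chs3 makes the ring at the bud neck and most of the chitin of the lateral wall. Chs3 needs Skt5 for its activity, Chs7 to leave the endoplasmic reticulum, and Chs5 and Chs6 to leave the Golgi. Its substrate, UDP-N-acetylglucosamine, comes from the hexosamine pathway, in which Gfa1 catalyses the first committed step, Gna1 adds the acetyl group and Qri1 (also called Uap1) catalyses the last step. Wall stress is known to raise chitin synthesis in yeast through Chs3.

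Values below are log2 ratios of treated over untreated RNA, so 1 is a doubling, and each ratio is relative to the array's median gene. The direction is assumed rather than stated in the sources. In replicate 1 the treated RNA was in Cy5 and in replicate 2 in Cy3, so dye and replicate number are the same factor, and the fit carried a term for it. A gene was said to have changed where limma gave a Benjamini-Hochberg adjusted p below 0.05 over all genes tested in that comparison. The 2 arrays of a condition correlated clearly only for caffeine 20 mM, at 0.672 at 90 min and 0.531 at 15 min, against −0.524 to 0.148 in the other conditions. The direction of caffeine 2 mM at 5 min is not settled: its replicate 1 correlated at −0.375 with another array of the same dye orientation. On 7 arrays a label field gives another dose or time than the title, and the title was followed. CHS2, CHS5 and CHS6 each lacked a value on 1 array, and each was left untested in that condition.

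Of the 177 tests of a gene in a condition, 12 passed, with 9 higher and 3 lower in treated cells. None of the 60 at 5 min passed, 2 of 58 passed at 15 min, and 10 of 59 passed at 90 min. The 12 belonged to 5 genes, CHS1, CHS2, CHS3, CHS7 and SKT5. The other 5 genes, CHS5, CHS6, GFA1, GNA1 and QRI1, passed in none of the conditions by limma. The share of all genes tested that changed, called the background, is given beside the count of each comparison. By condition it ran from 0% to 5.15% at 5 min, from 0% to 31.1% at 15 min and from 0% to 44.4% at 90 min. The background thus reached higher at the later times too, and the counts of the 10 genes by time were not tested against it.

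**Figure D1:**
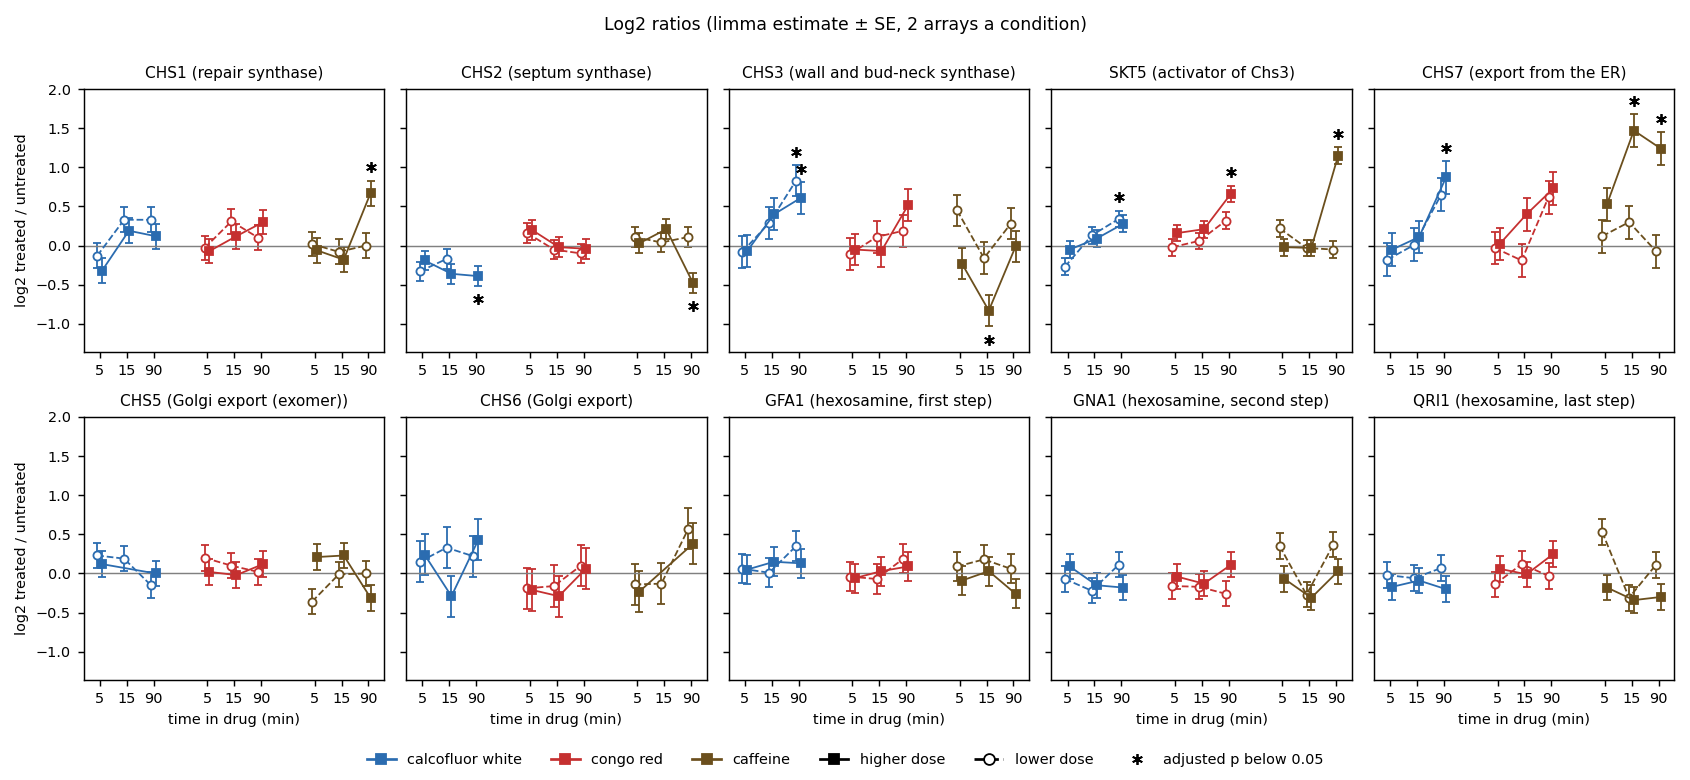
Log2 ratio of treated over untreated RNA (vertical axis) for each gene at 5, 15 and 90 min (horizontal axis) in the 3 drugs; points are limma estimates, bars are SE, filled squares the higher dose, open circles the lower dose, and asterisks an adjusted p below 0.05. SKT5 and CHS7 reach 1.15 and 1.24 at 90 min in caffeine 20 mM, and the hexosamine genes in the lower row carry no asterisk.

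In caffeine 20 mM at 90 min, 3 of the 10 genes rose and 1 fell, where 44.4% of all genes changed. At 15 min of the same dose, 1 of 9 tested rose and 1 fell, where 31.1% of all genes changed. In calcofluor white 0.1 mg/ml at 90 min, 2 of 10 rose and 1 fell, against a background of 14.7%. In calcofluor white 0.02 mg/ml at 90 min, 2 of 9 tested rose, against 11.1%. In congo red 0.1 mg/ml at 90 min 1 of 10 rose, against 1.38%. The drug with the fewest changed genes at 90 min thus still had 1 of the 10 among them.

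In the remaining 13 conditions limma called 0 of these genes. At 5 min, 0 were called in calcofluor white 0.02 mg/ml (2 at unadjusted p below 0.05, background 0%) and in calcofluor white 0.1 mg/ml (0 at unadjusted p, background 0%). Congo red at 5 min had 0 called at 0.02 mg/ml (0 at unadjusted p, background 0%) and 0 at 0.1 mg/ml (0 at unadjusted p, background 0.0187%). Caffeine at 5 min had 0 called at 2 mM (4 at unadjusted p, background 5.15%) and 0 at 20 mM (1 at unadjusted p, background 1.2%). These early samples therefore gave no call, while some genes of the whole array passed in caffeine. The 5.15% of caffeine 2 mM depended on the setting. In the main fit 274 genes passed, and 949 passed with the sign of its replicate 1 turned. With arrays scaled to one spread 31 passed, and with array weights or with caffeine arrays alone 0 passed.

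At 15 min, 0 genes were called in calcofluor white 0.02 mg/ml (1 at unadjusted p below 0.05, background 0%) and 0 of 9 tested in calcofluor white 0.1 mg/ml (1 at unadjusted p, background 0.0197%). Congo red at 15 min had 0 called at 0.02 mg/ml (0 at unadjusted p, background 0.0187%) and 0 at 0.1 mg/ml (0 at unadjusted p, background 0%). Caffeine 2 mM had 0 called at 15 min (0 at unadjusted p, background 0.54%) and 0 at 90 min (2 at unadjusted p, background 0%). Congo red 0.02 mg/ml at 90 min had 0 called (2 at unadjusted p, background 0.691%). The 2 genes at unadjusted p in that last condition were CHS7 and SKT5, the same pair that led in the higher dose.

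CHS7 encodes the membrane protein of the endoplasmic reticulum that lets Chs3 leave it. Its 2 arrays in caffeine 20 mM at 15 min gave 1.41 and 1.54. Both lay above every other CHS7 array but 1, and the estimate of 1.47 ± 0.21 (SE, n = 2 arrays) was a 2.77-fold rise, with a limma adjusted p of 2.48e-05. At 90 min the arrays gave 1.69 and 0.78. They disagreed in size but not in sign, and CHS7 rose by 1.24 ± 0.21, or 2.36-fold (limma adjusted p = 6.91e-05). Scaling every array to one spread left both calls in place but lowered the estimates to 0.957 at 15 min and 0.718 at 90 min, and without replicate 1 the 90 min value was 0.634. At 5 min the arrays gave 0.20 and 0.87, and 0.53 did not pass (limma adjusted p = 0.299).

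In calcofluor white 0.1 mg/ml at 90 min the CHS7 arrays gave 0.62 and 1.13. Both were positive, and CHS7 rose by 0.87 ± 0.21, or 1.83-fold (limma adjusted p = 0.00652). The call was lost without replicate 2, at 0.725 with an adjusted p of 0.219, and with the arrays scaled to one spread, at 0.625 with an adjusted p of 0.0531. In calcofluor white 0.02 mg/ml at 90 min the arrays gave 0.31 and 0.99, and the estimate of 0.65 missed the threshold (limma adjusted p = 0.0503). Congo red gave CHS7 the closest arrays: 0.70 and 0.75 at 0.1 mg/ml and 0.61 and 0.63 at 0.02 mg/ml, both at 90 min. Neither estimate passed, 0.73 with an adjusted p of 0.118 and 0.62 with an adjusted p of 0.294 by limma, where 1.38% and 0.691% of all genes passed. CHS7 was thus positive on both arrays of 5 of the 6 conditions at 90 min. Caffeine 2 mM at 90 min was the exception, with arrays of −0.18 and 0.05.

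Ordered by estimate, CHS7 stood at 1.47 and 1.24 in caffeine 20 mM at 15 and 90 min, then at 0.87, 0.73, 0.65 and 0.62 in the dyes at 90 min. The later minus the earlier caffeine value was −0.24, with a 95% interval of −0.85 to 0.38, so these neighbours did not differ beyond their error. The 4 dye values each carried an SE of 0.21, and none of the 4 differed from another dose or dye by a test that passed. The lowest value was −0.19 in congo red 0.02 mg/ml at 15 min. Over the 18 conditions the span of CHS7 was 1.67, wider than that of 87.3% of the 5025 genes compared, whose median span was 0.919. Its 2 spots on an array differed with an SD of 0.366, more than for any other of the 10 genes except CHS6.

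SKT5 encodes the activator that binds Chs3 at the bud neck and the plasma membrane. Its arrays in caffeine 20 mM at 90 min gave 1.15 and 1.14. They were almost equal, and SKT5 rose by 1.15 ± 0.11 (SE, n = 2 arrays), or 2.21-fold, with a limma adjusted p of 4.46e-08. The call held under all 13 alternative settings run, although scaling the arrays to one spread lowered the value to 0.622. SKT5 did not pass earlier at this dose, where arrays of −0.11 and 0.07 at 5 min and of 0.01 and −0.07 at 15 min lay on either side of 0. It did not pass in caffeine 2 mM at 90 min either, with arrays of −0.15 and 0.05.

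Congo red 0.1 mg/ml raised SKT5 at 90 min, with arrays of 0.64 and 0.67, an estimate of 0.66 ± 0.11 and a limma adjusted p of 0.0019. Its estimates at 5, 15 and 90 min were 0.16, 0.21 and 0.66, and all 6 arrays were positive. Without replicate 1 of the 90 min condition the call was lost, at 0.604 with an adjusted p of 0.071. Only the caffeine 20 mM value at 90 min was higher among the 18 SKT5 estimates. At congo red 0.02 mg/ml the 90 min arrays gave 0.27 and 0.38, and 0.32 did not pass (limma adjusted p = 0.258).

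In calcofluor white 0.02 mg/ml at 90 min the SKT5 arrays gave 0.15 and 0.53, the estimate was 0.34 ± 0.11, and the limma adjusted p was 0.0418. That call held under only 4 of 13 alternative settings, and it was lost without replicate 1 (0.476, adjusted p = 0.0717) and without replicate 2 (0.21, adjusted p = 0.665). At 0.1 mg/ml and 90 min the arrays gave 0.15 and 0.41, and 0.28 did not pass (limma adjusted p = 0.0903). SKT5 had the smallest residual SD of the 10 genes, 0.131, against 0.399 for CHS6, so it could pass at a smaller change than the others.

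**Figure D2:**
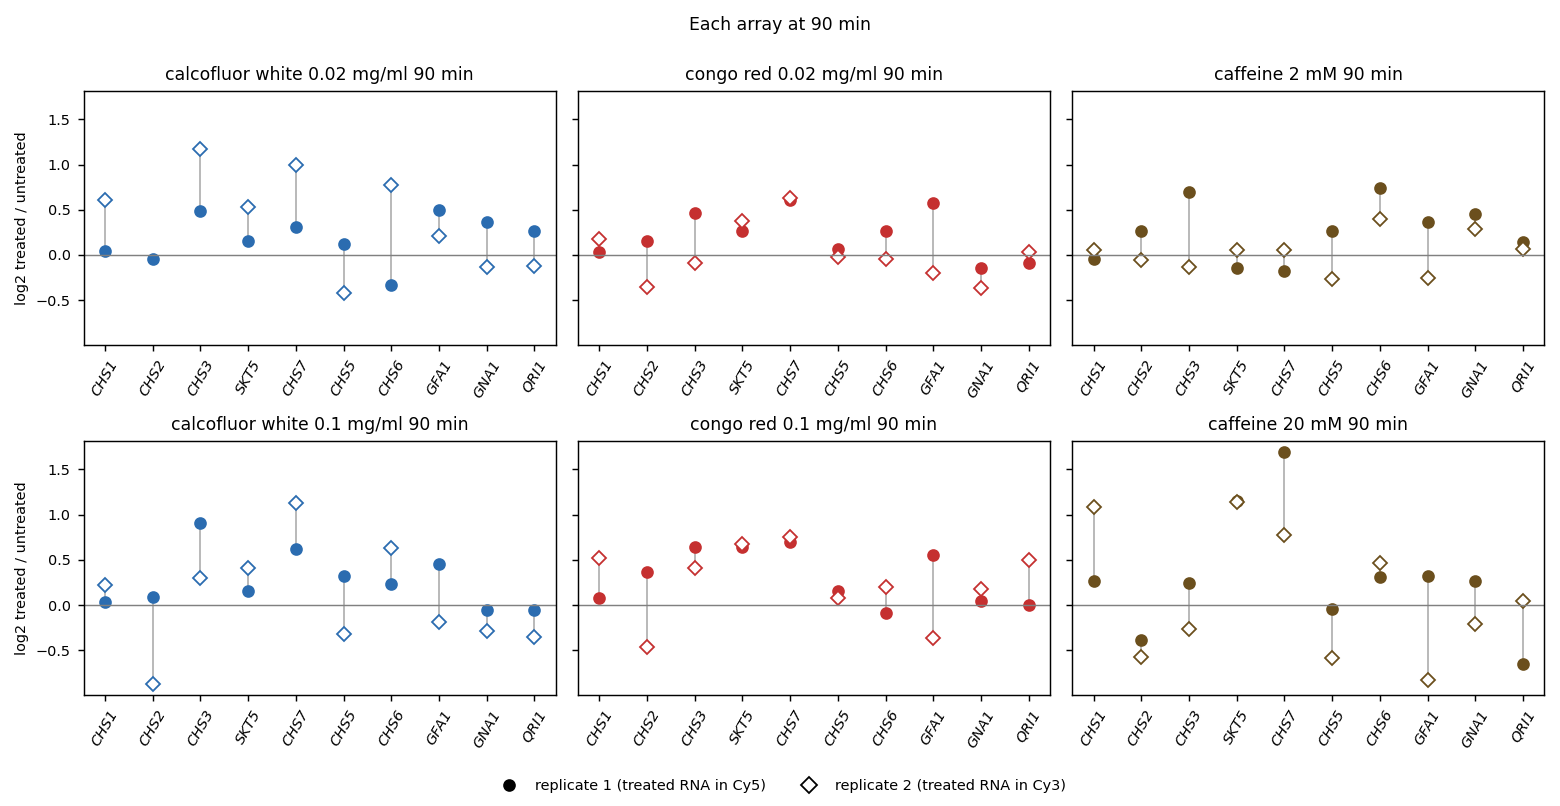
Log2 ratio of treated over untreated RNA (vertical axis) of the 10 genes (horizontal axis) on each array at 90 min; filled circles are replicate 1, open diamonds replicate 2, and a grey line joins the pair. SKT5 in caffeine 20 mM, at 1.15 and 1.14, and CHS7 in congo red lie close together, while GFA1 in congo red is far apart; CHS2 lacks replicate 2 in calcofluor white 0.02 mg/ml.

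CHS3, the gene of the main synthase itself, fell in caffeine at 15 min and rose in calcofluor white at 90 min. After 15 min in caffeine 20 mM its arrays gave −0.88 and −0.78. These were the 2 lowest of its 36 arrays, and CHS3 fell by 0.83 ± 0.20 (SE) on the log2 scale (limma adjusted p = 0.00405). The call was lost with arrays scaled to one spread (−0.534, adjusted p = 0.0781), without replicate 1 (−0.678, adjusted p = 0.191) and without the arrays whose labels disagree (−0.649, adjusted p = 0.236), which include that same replicate 1. At 90 min the arrays gave 0.24 and −0.27, which cancel to −0.01.

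In calcofluor white 0.02 mg/ml at 90 min the CHS3 arrays gave 0.49 and 1.17. Both were positive, and CHS3 rose by 0.83 ± 0.20, or 1.78-fold (limma adjusted p = 0.00938); without replicate 2 the value was 0.37 with an adjusted p of 0.656. At 0.1 mg/ml the 90 min arrays gave 0.91 and 0.30, for an estimate of 0.61 ± 0.20 and a limma adjusted p of 0.0473. This second call held under 1 of 13 alternative settings and was lost by leaving out either array, at 0.386 without replicate 1 and 0.83 without replicate 2. Congo red 0.1 mg/ml gave arrays of 0.64 and 0.41, both positive, but 0.52 did not pass (limma adjusted p = 0.332). Caffeine 2 mM at 90 min gave arrays of 0.70 and −0.13, which differ in sign.

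CHS5 and CHS6 encode parts of exomer, the coat that carries Chs3 from the Golgi to the surface. CHS5 ranged from −0.36 in caffeine 2 mM at 5 min to 0.23 in caffeine 20 mM at 15 min over 17 conditions, and its smallest limma adjusted p was 0.126. The low end of that range is the condition of unsettled direction, with arrays of −0.38 and −0.35, and with the sign of its replicate 1 turned the value was 0.02. CHS6 ranged from −0.29 to 0.57, the highest in caffeine 2 mM at 90 min with arrays of 0.74 and 0.40 (limma adjusted p = 0.449). The 2 spots of CHS6 on an array differed with an SD of 0.573, and its standard error of 0.26 per condition was the largest of the 10.

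CHS2, the gene of the septum synthase, fell in caffeine 20 mM at 90 min. Its arrays gave −0.39 and −0.58. Both were negative, and the estimate was −0.48 ± 0.13 (SE, n = 2 arrays), with a limma adjusted p of 0.0038. The call was lost without the dye term (adjusted p = 0.137), with arrays scaled to one spread (−0.251, adjusted p = 0.17) and without replicate 1 (−0.364, adjusted p = 0.121). In calcofluor white 0.1 mg/ml at 90 min the arrays gave 0.09 and −0.87, of opposite sign. Their estimate of −0.39 passed with a limma adjusted p of 0.0408, held under 3 of 12 alternative settings, and was −0.107 without replicate 2. In all 17 conditions with both arrays, CHS2 was higher in the Cy5 orientation than in the Cy3 one. This was common: 1354 of 4242 genes with a value on every array (31.9%) had one orientation higher in 17 or 18 conditions.

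CHS1, the gene of the repair synthase, rose in caffeine 20 mM at 90 min, with arrays of 0.27 and 1.08. They agreed in sign but differed by 0.816, and the estimate was 0.67 ± 0.16, or 1.60-fold (limma adjusted p = 0.00159). Without replicate 2 the value was 0.342 with an adjusted p of 0.268, and with arrays scaled to one spread it was 0.322 with an adjusted p of 0.12. In the other 17 conditions CHS1 ranged from −0.32 to 0.33 with none passing.

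CHS1 and CHS2 are expressed at set stages of the cell cycle, so lists of stage genes were read in the same arrays. At 90 min of caffeine 20 mM, 3 of 10 tested genes of the M phase list fell and 0 rose, where 44.4% of all genes changed, and their median was −0.25 against −0.03 for all genes. KIN3, a kinase gene of that list, fell by 0.78 ± 0.14 (arrays −0.67 and −0.88, limma adjusted p = 0.00011). Of the 11 genes of the M/G1 list, 5 rose and 1 fell, with a median of 0.0934. SCW11, a gene for a glucanase of daughter separation, rose by 0.84 ± 0.18 (arrays 1.13 and 0.55, limma adjusted p = 0.000537). Of 9 tested genes of the G1 list, 0 rose and 3 fell. Among 8 tested genes of the pheromone list, 2 rose and 0 fell. The shares of the M phase, G1 and pheromone lists that changed were below the 44.4% of all genes, and that of the M/G1 list was above it, with no test of either. The part of cell cycle position in the values of CHS1 and CHS2 was not tested.

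In the 15 min samples of the same dose, where 31.1% of all genes changed, 2 of 10 tested M phase genes rose and 0 fell. Of 11 M/G1 genes 1 rose and 2 fell, and of 9 tested G1 genes 0 rose and 4 fell. Whether the lists differed between the times was not tested. SCW11 fell there by 0.62 (limma adjusted p = 0.011), and CHS1 and CHS2 stood at −0.18 and 0.21 without passing. Calcofluor white 0.1 mg/ml at 90 min was the other condition in which CHS2 passed. There 0 of 10 M phase genes changed, 2 of 11 M/G1 genes fell and 1 of 8 tested G1 genes fell, against 14.7% of all genes. The G1 gene was CDC9, which encodes DNA ligase, at −0.64 (limma adjusted p = 0.0039), and in the pheromone list 1 of 7 tested rose and 1 fell. In congo red 0.1 mg/ml at 90 min, limma called 0 genes of these 4 lists, against 1.38%.

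The hexosamine genes GFA1, GNA1 and QRI1 passed in none of the 18 conditions by limma. GFA1 ranged from −0.26 to 0.35, with arrays of 0.50 and 0.21 at its highest, in calcofluor white 0.02 mg/ml at 90 min (limma adjusted p = 0.266). GNA1 ranged from −0.31 to 0.37, the highest in caffeine 2 mM at 90 min, with arrays of 0.45 and 0.29 (limma adjusted p = 0.449). QRI1 ranged from −0.34 in caffeine 20 mM at 15 min, with arrays of −0.50 and −0.18, to 0.53 in caffeine 2 mM at 5 min, with arrays of 0.78 and 0.27. Neither end passed, with limma adjusted p of 0.113 and 0.0634. With the sign of replicate 1 turned in caffeine 2 mM at 5 min, QRI1 stood at −0.26 and GNA1 at −0.29 there, against 0.53 and 0.35 as deposited, and none of the 10 genes passed.

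The GFA1 arrays split by Cy5 and Cy3 orientation. Orientation is also the replicate number, so the 2 cannot be told apart. The Cy5 orientation of GFA1 was positive in 17 of 18 conditions and its Cy3 orientation in 2 of 18, so the 2 arrays agreed in sign in 1 condition. The dye term of GFA1 was 0.349 ± 0.044 (limma adjusted p = 8.09e-07), larger than its estimate in 17 of 18 conditions. Such a dye term was common on these arrays, passing for 3404 of 5391 genes. Caffeine 2 mM at 5 min alone ran the other way, with −0.23 in the Cy5 orientation and 0.42 in the Cy3 one. The estimate of each condition averages the 2 orientations, so this difference between them cancels in it, but a single GFA1 array cannot be read.

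**Figure D3:**
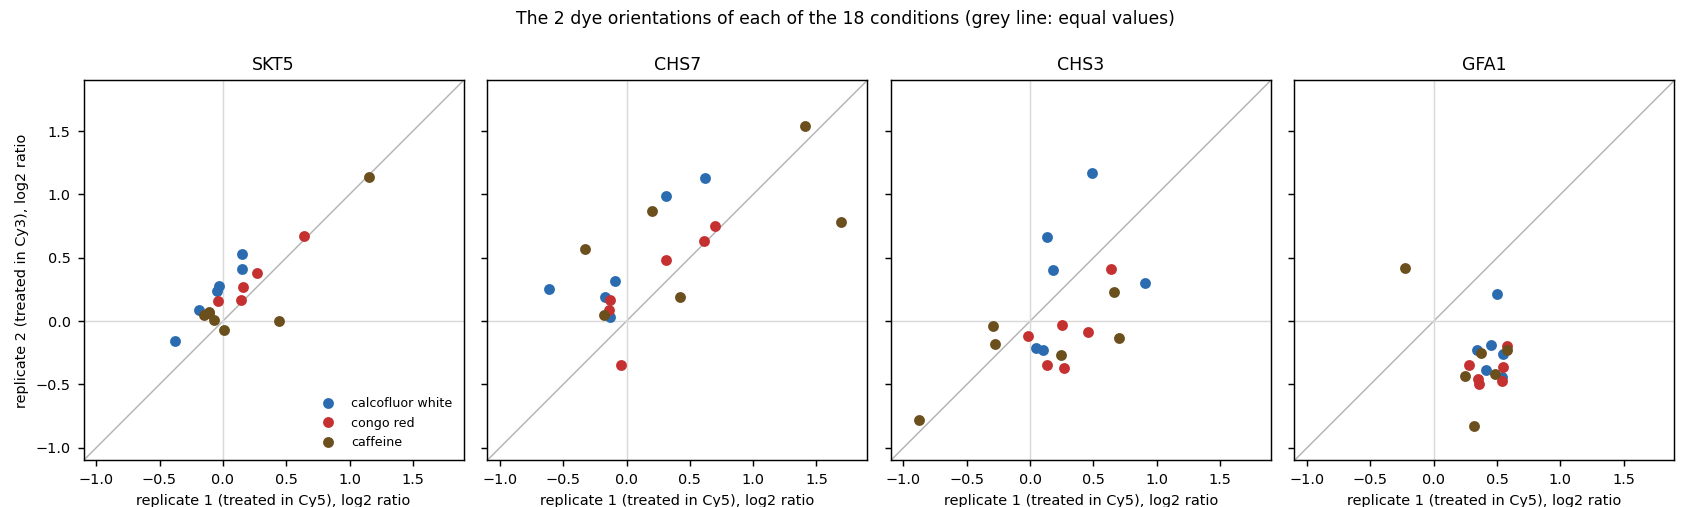
Log2 ratio in replicate 2, treated in Cy3 (vertical axis), against replicate 1, treated in Cy5 (horizontal axis), for SKT5, CHS7, CHS3 and GFA1; each point is 1 of 18 conditions, coloured by drug. SKT5 lies above the line of equal values in 15 of 18 conditions, and close to it in caffeine 20 mM at 90 min, at 1.15 and 1.14. GFA1 lies in the lower right corner in 16 conditions, with caffeine 2 mM at 5 min alone at the upper left.

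Dose was compared within each drug and time. For caffeine at 90 min, 20 mM minus 2 mM was 1.20 ± 0.15 for SKT5, 1.30 ± 0.30 for CHS7, 0.67 ± 0.22 for CHS1 and −0.59 ± 0.18 for CHS2. Their limma adjusted p were 7.53e-06, 0.00264, 0.0335 and 0.0193, so 3 of 10 were higher at the higher dose and 1 lower, where 23.2% of all genes differed. SKT5 kept this call under all 15 alternatives, and with arrays scaled to one spread it alone of the 4 did, at 0.632. The call held for CHS1 under 5 of 15 and CHS2 under 5 of 14. The CHS1 call was lost without replicate 1 of 2 mM (adjusted p = 0.0942), replicate 2 of 2 mM (0.142) or replicate 2 of 20 mM (0.452). The CHS2 call was lost without replicate 1 of 2 mM (adjusted p = 0.0622), replicate 2 of 2 mM (0.107) or replicate 1 of 20 mM (0.132), and that of CHS7 without replicate 1 of 20 mM (0.0972). At 15 min the difference was 1.17 ± 0.30 for CHS7 (limma adjusted p = 0.0244), 1 of 9 tested against a background of 4.82%. It held under 7 of 15 alternatives, and scaling the arrays to one spread lowered it to 0.663 (adjusted p = 0.552). It was lost without the dye term (adjusted p = 0.148), without the arrays whose labels disagree (0.261) and with caffeine arrays alone (0.294). Leaving out replicate 2 of 2 mM (0.322) or either array of 20 mM (0.182 and 0.0634) also ended it.

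Between 0.1 and 0.02 mg/ml of calcofluor white at 90 min, limma called 0 of 9 genes (0 at unadjusted p below 0.05, background 0%). CHS7 differed by 0.22 (95% interval −0.40 to 0.84) and CHS3 by −0.22 (−0.82 to 0.37). Between the doses of congo red at 90 min, limma called 0 of 10 (1 at unadjusted p, background 0%). That gene was SKT5, at 0.33 (95% interval 0.02 to 0.65, limma adjusted p = 1). The intervals are as wide as the changes themselves, so a dose effect of the size of the drug effect is not excluded for CHS7 or CHS3. In the other 5 dose differences, limma called 0 of 49 tests (3 at unadjusted p, background 0.521%).

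Times were compared within each drug and dose. For caffeine 20 mM, 90 minus 15 min was 1.18 ± 0.15 for SKT5, 0.85 ± 0.22 for CHS1, 0.82 ± 0.29 for CHS3 and −0.69 ± 0.18 for CHS2. With limma adjusted p of 9.6e-06, 0.00655, 0.0318 and 0.00589, 3 of 9 tested were higher at 90 min and 1 lower, where 35.7% of all genes differed. The CHS3 difference held under 5 of 15 alternatives and was lost without replicate 1 of either time or replicate 2 of 90 min (adjusted p of 0.225, 0.163 and 0.0624). The CHS1 difference was lost without replicate 2 of 90 min (adjusted p = 0.169), and the CHS2 difference without replicate 2 of 15 min (0.0805) or without the dye term (0.158). Scaling the arrays to one spread ended the calls of CHS1 (0.434, adjusted p = 0.197), CHS2 (−0.387, adjusted p = 0.188) and CHS3 (0.554, adjusted p = 0.236). SKT5 kept its call under that scaling, at 0.646. CHS7, already high at 15 min, did not differ.

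From 90 minus 5 min in caffeine 20 mM, SKT5 differed by 1.17 ± 0.15, CHS1 by 0.73 ± 0.22 and CHS2 by −0.51 ± 0.18. The limma adjusted p were 1.22e-05, 0.0162 and 0.0324, so 3 of 10 differed, where 32.5% of all genes did. The CHS2 difference held under 2 of 14 alternatives and was lost when any 1 of the 4 arrays was left out (adjusted p of 0.054 to 0.176). The CHS1 difference was lost without replicate 2 of 5 min (adjusted p = 0.177) or of 90 min (0.31). Scaling the arrays to one spread ended both calls, at 0.376 for CHS1 and −0.298 for CHS2, and lowered SKT5 to 0.651, which still passed. In calcofluor white 0.02 mg/ml, SKT5 was 0.61 ± 0.15 higher at 90 than at 5 min (limma adjusted p = 0.0425), 1 of 9 tested against 1.59%. Its 5 min arrays of −0.38 and −0.16 were both negative, and the call held under 5 of 15 alternatives; it was lost without replicate 2 of 90 min (adjusted p = 0.393) or without either array of 5 min (0.28 and 0.148).

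Between 90 and 15 min, limma called 0 of 9 genes in calcofluor white 0.1 mg/ml (1 at unadjusted p below 0.05, background 2.37%) and 0 of 10 in congo red 0.1 mg/ml (1 at unadjusted p, background 0.0748%). These were CHS7, at 0.76 ± 0.30, and SKT5, at 0.44 ± 0.15. In the other 13 time differences limma called 0 of 127 tests (18 at unadjusted p, background 0.694%). The CHS7 difference between 90 and 5 min was 0.64 to 0.92 in the 4 dye series and passed in none.

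The dyes were compared at matched dose and time. For congo red minus calcofluor white at 0.1 mg/ml and 90 min, limma called 0 of 10 genes (1 at unadjusted p below 0.05, background 0.288%). SKT5 differed by 0.38 ± 0.15 (95% interval 0.06 to 0.69, limma adjusted p = 0.305), CHS7 by −0.14 (−0.76 to 0.47) and CHS3 by −0.08 (−0.68 to 0.51). At 0.02 mg/ml limma called 0 of 9 (1 at unadjusted p, background 0.0427%). The gene was CHS3, at −0.64 (−1.24 to −0.05, limma adjusted p = 0.807). A higher SKT5 in congo red and a higher CHS3 in calcofluor white are therefore not established, and the intervals do not show that the dyes act alike. In the other 5 drug differences limma called 0 of 49 tests (3 at unadjusted p, background 0.0429%).

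Caffeine 20 mM was set against the mean of both dyes at 0.1 mg/ml, doses that are not matched. At 15 min CHS7 was higher in caffeine by 1.22 ± 0.26 and CHS3 lower by 0.99 ± 0.25, as differences of log2 ratios. With limma adjusted p of 0.00247 and 0.00848, 2 of 8 tested differed, where 17.2% of all genes did. Both calls were lost with arrays scaled to one spread and without replicate 1 of caffeine (adjusted p of 0.0563 for CHS7 and 0.187 for CHS3). At 90 min SKT5 was higher in caffeine by 0.68 ± 0.13 (limma adjusted p = 0.000638), 1 of 10 against 29.6%. Scaled to one spread, that difference was 0.201 with an adjusted p of 0.464.

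Averages over conditions rest on more arrays, but a single condition can carry much of an average. Over the 6 calcofluor white conditions CHS3 averaged 0.33 ± 0.083 (SE, n = 12 arrays), and it was the only one of 8 tested to pass (limma adjusted p = 0.00727), against a background of 19.8%. This call held under all 21 alternatives run, from 0.254 to 0.407. Over the 6 congo red conditions SKT5 averaged 0.23 ± 0.044, the only one of 10 to pass (limma adjusted p = 0.0126), against 0.761%. It was lost without the dye term (adjusted p = 0.137), without the arrays whose labels disagree (0.0958) and without replicate 1 of congo red 0.1 mg/ml at 15 min (0.0529). Over the 6 caffeine conditions CHS7 averaged 0.60 ± 0.086 and SKT5 0.21 ± 0.044, 2 of 9 tested against 25.8%, with limma adjusted p of 2.69e-05 and 0.00135. With the sign of caffeine 2 mM 5 min replicate 1 turned, CHS7 averaged 0.66 and SKT5 0.13, both still passing, and QRI1 passed at −0.21. The SKT5 average did not pass with arrays scaled to one spread (0.107, adjusted p = 0.0927) or with caffeine arrays alone (adjusted p = 0.0571).

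Averaged over the 3 times of 1 dose, caffeine 20 mM gave 1.08 ± 0.12 for CHS7 and 0.36 ± 0.062 for SKT5. It gave −0.36 ± 0.12 for CHS3 and −0.28 ± 0.094 for QRI1. These are 4 of 9 tested, against 37.5% of all genes, and the limma adjusted p were 5.88e-07, 8.09e-05, 0.0195 and 0.025. QRI1 was the only one of GFA1, GNA1 and QRI1 to pass in a comparison described here. That call held under 11 of 17 alternatives and was lost without replicate 1 of 5, 15 or 90 min (adjusted p of 0.105, 0.116 and 0.207). The CHS3 average held under 9 of 17 and was lost without replicate 1 of 5 or 15 min or replicate 2 of 90 min (0.101, 0.102 and 0.103). It came mainly from 15 min, with arrays of −0.88 and −0.78, against −0.28 and −0.18 at 5 min and 0.24 and −0.27 at 90 min. The SKT5 average came from 90 min, with arrays of 1.15 and 1.14, against −0.11 and 0.07 at 5 min and 0.01 and −0.07 at 15 min.

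Calcofluor white 0.1 mg/ml lowered CHS2 on average over the 3 times, by 0.31 ± 0.072 (limma adjusted p = 0.0114), 1 of 9 tested against 7.57%. The 3 Cy3 arrays behind it gave −0.42, −0.47 and −0.87 and the 3 Cy5 arrays 0.03, −0.25 and 0.09. The Cy3 arrays were all lower than the Cy5 arrays, and without the dye term the call was lost (adjusted p = 0.361); leaving out replicate 1 of 15 min or replicate 2 of 90 min also ended it (0.0924 and 0.12). Congo red 0.1 mg/ml raised SKT5 on average by 0.34 ± 0.062 (limma adjusted p = 0.0162), 1 of 10 against 0.113%, and leaving out any 1 of its 6 arrays ended that call (adjusted p of 0.051 to 0.117). Limma called 0 of 9 in calcofluor white 0.02 mg/ml (1 at unadjusted p below 0.05, background 5.42%), 0 of 10 in congo red 0.02 mg/ml (1 at unadjusted p, background 0.17%) and 0 of 10 in caffeine 2 mM (0 at unadjusted p, background 0.529%).

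Other genes of the same pathways were read from lists chosen by function. After 90 min of caffeine 20 mM, 3 of 11 genes of chitin synthase transport and placement rose and 1 fell, a smaller share than the 44.4% of all genes that changed. BUD7 and BCH1, which encode exomer parts related to Chs6, rose by 1.26 ± 0.19 (arrays 1.11 and 1.41, limma adjusted p = 2.06e-05) and 0.89 ± 0.12 (arrays 0.91 and 0.87, limma adjusted p = 6.54e-06). ARF1, the gene of a GTPase that recruits Golgi coats, fell by 0.58 ± 0.098 (arrays −0.32 and −0.84, limma adjusted p = 6.89e-05). BCH2, the third relative of CHS6, did not pass, at −0.28 ± 0.17 (limma adjusted p = 0.182), nor did CHS5 and CHS6, at −0.31 and 0.38. Whether these genes differ from one another was not tested.

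In calcofluor white 0.1 mg/ml at 90 min, 2 of these 11 genes rose and 1 fell, against 14.7% of all genes. RCR1, a gene whose overexpression is known to lower chitin deposition, rose by 1.39 ± 0.19 (arrays 1.03 and 1.74, limma adjusted p = 4.13e-05), more than any of the 10 chitin genes in that condition. At 0.02 mg/ml RCR1 rose by 0.63 ± 0.19 (arrays 0.52 and 0.75, limma adjusted p = 0.0361). In congo red 0.1 mg/ml at 90 min, 1 of the 11 rose, against 1.38% of all genes: BUD7, by 0.84 ± 0.19 on average, with both arrays positive (limma adjusted p = 0.0283).

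Of the 6 other hexosamine pathway genes, 3 rose and 2 fell in caffeine 20 mM at 15 min, and 2 rose and 2 fell at 90 min, where 31.1% and 44.4% of all genes changed. HXK1, a hexokinase gene that feeds sugar phosphate to many pathways, rose by 1.82 ± 0.17 at 15 min (arrays 1.73 and 1.92, limma adjusted p = 1.8e-07). GLN1, the gene of glutamine synthetase, whose product Gfa1 uses, rose by 0.61 ± 0.13 (arrays 0.78 and 0.45, limma adjusted p = 0.00133). In caffeine 2 mM at 15 min 2 of the 6 rose, where 0.54% of all genes changed: HXK1 by 1.06 ± 0.17 (arrays 0.81 and 1.32, limma adjusted p = 0.00236) and GLN1 by 0.76 ± 0.13 (arrays 0.79 and 0.74, limma adjusted p = 0.00352). At 20 mM and 15 min PCM1, the mutase gene between GNA1 and QRI1, fell by 0.39 ± 0.099, but its arrays of −0.75 and −0.03 were far apart (limma adjusted p = 0.00566). In calcofluor white 0.1 mg/ml at 90 min 1 of the 6 rose, against 14.7% of all genes: GLK1, a glucokinase gene, by 0.93 ± 0.16. In congo red 0.1 mg/ml at 90 min limma called 0 of the 6, against 1.38%.

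Among 5 further genes listed for the use or transport of UDP-N-acetylglucosamine, 2 fell and 0 rose in caffeine 20 mM at 15 min, where 31.1% of all genes changed. SPT14, which makes the first intermediate of GPI anchors, fell by 1.47 ± 0.29 (arrays −1.98 and −0.96, limma adjusted p = 0.000819). ALG14, of the second step of N-glycan assembly, fell by 1.31 ± 0.31 (arrays −1.17 and −1.44, limma adjusted p = 0.00353). At 90 min 1 of 4 tested rose, against 44.4% of all genes: ALG13, the partner gene of ALG14, by 0.78 ± 0.13 (arrays 0.27 and 1.28, limma adjusted p = 5.32e-05).

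Of the genes of chitin remodelling, 1 of 6 tested rose in caffeine 20 mM at 15 min, the deacetylase gene CDA2, by 0.40 ± 0.11, and 1 of 6 fell at 90 min, the chitinase gene CTS2, by 0.45 ± 0.17 (limma adjusted p of 0.0109 and 0.0395). The background was 31.1% at 15 min and 44.4% at 90 min. In both dyes at 0.1 mg/ml and 90 min limma called 0 of 6. Of the beta-glucan genes, the other large class of wall polymer genes, 6 of 10 tested rose and 1 fell in caffeine 20 mM at 90 min, and 1 rose and 3 fell of 10 at 15 min, against the same backgrounds. In calcofluor white 0.1 mg/ml at 90 min 3 of 9 tested rose and 0 fell, against 14.7%, and in congo red 0.1 mg/ml at 90 min 2 of 10 rose and 0 fell, against 1.38%. In caffeine 20 mM GSC2, an inducible glucan synthase gene, stood at −0.91 at 15 min and 1.95 at 90 min, with limma adjusted p of 0.00743 and 1.91e-06. In calcofluor white at 90 min it rose by 1.36 at 0.1 mg/ml and by 1.55 at 0.02 mg/ml (limma adjusted p of 0.000546 and 0.00029). Among 8 genes of wall integrity kinases and factors, 7 were tested in caffeine 20 mM at 90 min and 2 rose, against 44.4% of all genes: MKK1 by 1.09 ± 0.13 (limma adjusted p = 1.59e-06) and MKK2 by 0.37 ± 0.15 (0.0476). MKK1 also passed in the 4 dye conditions at 90 min, at 0.54 to 0.85.

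**Figure D4:**
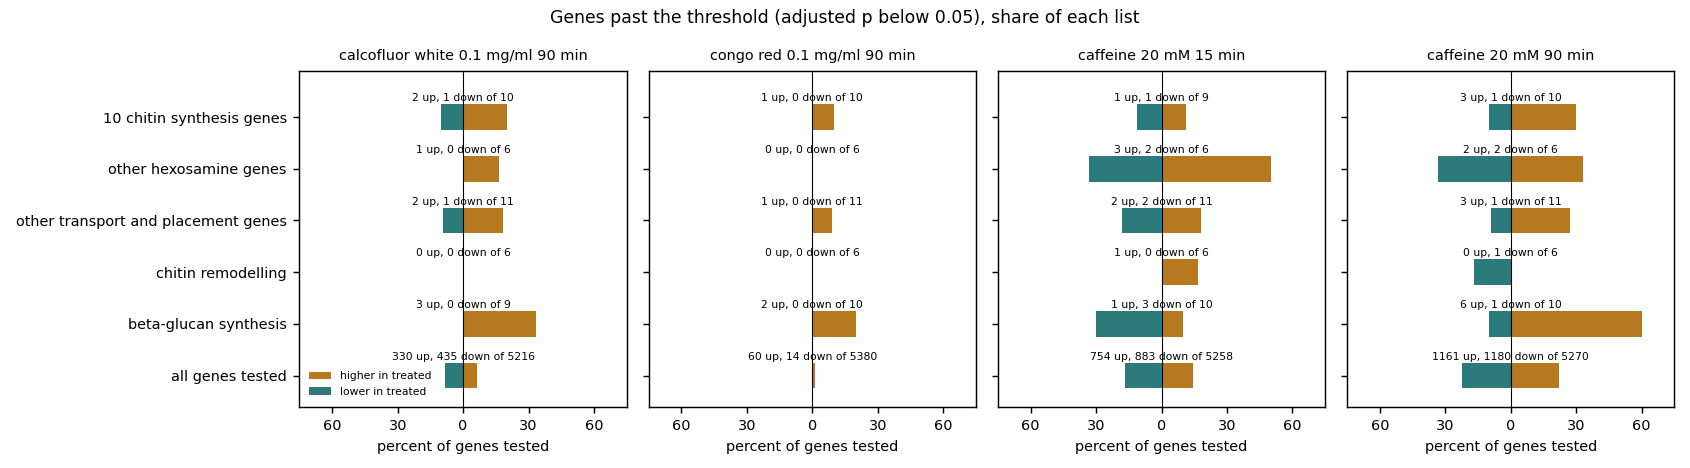
Share of genes tested that passed, in percent (horizontal axis, higher in treated to the right and lower to the left), for the 10 chitin genes, 4 other lists and all genes, in 4 conditions. In caffeine 20 mM at 90 min 3 of the 10 chitin genes were higher and 1 lower, while 1161 and 1180 of 5270 genes tested were higher and lower.

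Likeness over the 18 conditions was described by Pearson correlation of the estimates, which share arrays and the dye term. Among the 10 genes, CHS1 and SKT5 were the most alike at 0.80, or 0.635 without caffeine 20 mM at 15 and 90 min. CHS7 and SKT5 stood at 0.574, and at 0.714 without those 2 conditions. CHS3 and SKT5 stood at 0.333, and at 0.656 without them. CHS3 and CHS7 went from −0.173 to 0.457, and SKT5 and GFA1 from −0.232 to 0.387. Such a rise was thus not particular to the synthase gene and its activator, and differences between correlations were not tested. QRI1 and GNA1, both of the hexosamine pathway but with PCM1 between them, stood at 0.651. Both had their highest array, 0.78 and 0.63, in replicate 1 of caffeine 2 mM at 5 min, whose direction is not settled. No correlation was computed without that condition. CHS5 and SKT5 were the most opposed at −0.611.

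Of 4235 other genes with a value on every array, the 3 most like CHS7 were VPS27 (0.928), SDS22 (0.913) and NCE103 (0.908). For SKT5 they were PIN2 (0.921), PRP6 (0.912) and AIM46 (0.902). For CHS3 they were ACB1 (0.916), IMP1 (0.896) and MEH1 (0.896). The nearest genes to CHS2, over 17 conditions, were KIN4 (0.894), KAP114 (0.831) and PTC3 (0.817), and to CHS1 they were ADY3 (0.836), PAM1 (0.81) and YIP3 (0.808). The lists of nearest genes did not overlap, but with only 3 of 4235 genes in each, that does not show that the patterns differ.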

How the data were processed

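The members and all gene lists were chosen with earlier results of these data known. The deposited values are natural log ratios per spot, as read from the values: the mean over the spots of each array is 0, and repeated values differ by natural logs of small whole-number ratios. The scanner, any background correction and the normalization: not given in the sources used here. The direction is not stated and was taken as treated over untreated. Spots at the most frequent value of an array, its floor (1.609% to 16.09% of named spots), were treated as missing. Division by 0.6931 gave log2 values. Spots of one gene were averaged, and each array was then shifted to a median of 0.

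One model (limma 3.58.1, R 4.3.3) held all 36 arrays. It had a term for each of 18 conditions and one for dye, which is the replicate block (17 residual degrees of freedom, median residual SD 0.239). A gene was fitted if at least 24 arrays had a value for it (5391 genes) and tested where no array of the conditions compared was missing. The Benjamini-Hochberg threshold of 0.05 applied to each comparison by itself, and confidence intervals are 95%. The fit was tested on simulated data for congo red 0.1 mg/ml at 90 min, over 5380 genes. It recovered 87 of 100 genes changed by 1 on the log2 scale and 99 of 100 changed by 2, with 10 false calls among 196. The simulated noise of a gene had the same SD on every array, whereas the spread of the real arrays ran from 0.1993 to 0.7392. Changes smaller than 1 were not simulated. These rates therefore cannot be carried over to the calls above. The block was kept because deviations of arrays with the same number had a correlation over 0.1 for 153 of 153 condition pairs (0.114 to 0.826). Precision is limited by how many arrays there are: each condition has 2, so the spread was pooled over all conditions. Tables used pandas 2.3.3, numpy 2.4.6 and scipy 1.17.1 under python 3.11.15. All 10 genes were named in every comparison. List genes were taken from those that passed in at least 1 condition with both arrays of one sign, at most 4 a list by adjusted p. Not all of these were named, and BCH2, which did not pass, was named beside BCH1 and BUD7. GPI3 is SPT14 in the files. Promoter motifs were not analysed here.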

Additional observations from a re-analysis of the deposited data

Results flagged for a closer look

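Some effects on these genes differed between doses, times or drugs, by limma's test of the difference itself. Between 20 and 2 mM of caffeine at 90 min, SKT5 differed by 1.20, CHS7 by 1.30, CHS1 by 0.67 and CHS2 by −0.59, and at 15 min CHS7 differed by 1.17. Between 90 and 15 min in caffeine 20 mM, SKT5 differed by 1.18, CHS1 by 0.85, CHS3 by 0.82 and CHS2 by −0.69. Between 90 and 5 min, SKT5 differed by 1.17, CHS1 by 0.73 and CHS2 by −0.51. In calcofluor white 0.02 mg/ml SKT5 differed by 0.61 between 90 and 5 min. Between caffeine 20 mM and the mean of both dyes at 0.1 mg/ml, CHS7 differed by 1.22 and CHS3 by −0.99 at 15 min, and SKT5 by 0.68 at 90 min. Those at 20 mM share their caffeine arrays, so they are not separate evidence.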

How the results depend on the processing

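Alternatives were run on the counts of genes called and on each named call. Leaving out the replicate block moved the count to 1 from 3 called in calcofluor white 0.1 mg/ml at 90 min, to 2 from 4 in 20 minus 2 mM of caffeine at 90 min, and to 2 from 4 in caffeine 20 mM at 90 minus 15 min. Scaling the arrays to one spread moved these counts to 0, 1 and 1, and those of caffeine 20 mM at 15 and 90 min to 1 and 2 from 2 and 4. It left 0 of 1 in caffeine 20 mM minus the dyes at 90 min, where no centring or the second spot alone gave 2. For calcofluor white 0.1 mg/ml at 90 min, keeping floor spots, array weights, the second spot alone and leaving out arrays whose labels disagree each gave 1. That last setting gave 1 in caffeine 20 mM at 15 min and 2 at 90 minus 15 min. For 20 minus 2 mM at 90 min, array weights and the second spot gave 2, and caffeine arrays alone gave 1, with 2 at 90 minus 15 min. Congo red arrays alone gave 2 called at 0.1 mg/ml and 90 min, and array weights gave 1 in caffeine 20 mM at 5 min against 0. Leaving out 1 array gave 0 to 2 in calcofluor white and 0 to 1 in congo red at 0.1 mg/ml and 90 min, 1 to 2 in caffeine 20 mM at 15 min, 2 to 3 in 20 minus 2 mM at 90 min, 2 to 4 at 90 minus 15 min and 1 to 2 in caffeine minus the dyes at 90 min. GFA1 in caffeine 2 mM at 5 min was −0.618 without replicate 2 and 0.804 without replicate 1. The causes were not tested.

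Of 38 named calls, none changed sign, and 306 of 407 values under other settings and 126 of 178 with 1 array left out kept the call. Counted by call, 26 of the 38 were lost under at least 1 other setting. Leaving out 1 array likewise ended 26 of the 38 at least once. With the arrays whose labels disagree left out, calcofluor white at 15 min had no array left and gave no value. Depth is unknown, and 2 arrays a condition limit every call.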
